A study of Mus musculus with 9 samples.

Results

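Gadd45a is a small stress-induced gene whose product slows cell division after damage or nutrient stress. It was followed here through 1 row of a table of 53379, the row of the noncoding gene E230016M11Rik, because the counts in this table lie opposite to expressed genes and the first exon of E230016M11Rik lies across an exon of Gadd45a. The row was chosen by its measured rise in counts under DON against control, so its levels against control are given as a description, without a test. The cells were MOVAS, an immortalised smooth muscle line made from mouse aorta and labelled C57BL/6, kept for 24 h in 1 of 3 conditions with 3 libraries each. Control cells had no treatment, a second group had 50 mM DON as labelled, and the third had 50 mM DON together with 2 mM glutamate. The labels name the supplement glutamate but cite a catalogue number that may be that of a glutamine dipeptide, so what the third group received is not certain, and glutamate below means the supplement as labelled. As background, DON resembles glutamine and inhibits enzymes that consume it. All groups grew in the same serum-containing medium with geneticin, and all stand for a single cell line. The series title ties GLS2, a glutaminase, to remodelling of arteries in atherosclerosis. The comparisons ask what blocking glutamine use changed and what added glutamate changed under the block.

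GADD45A, the protein, binds the replication clamp PCNA, the cell cycle inhibitor p21 and the mitotic kinase CDK1, and it activates MAP3K4, a kinase at the head of the p38 and JNK stress pathways. It is also known for a part in DNA repair and in the removal of DNA methylation. Its gene is a classical target of p53 after DNA damage, and it is also raised without p53 by other stresses, among them amino acid shortage, in which the transcription factor ATF4 acts. Its relatives Gadd45b and Gadd45g share many of these activities.

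In mm10 (GENCODE M21) Gadd45a spans 67035096 to 67037457 of chromosome 6, minus strand. E230016M11Rik, on the plus strand, spans 67036599 to 67080654 and is annotated as a noncoding RNA, in part as one that starts from a bidirectional promoter. Their exons share 337 bp, which is all of the first exon of E230016M11Rik-201 and 8.77% of the exon length of E230016M11Rik. Gadd45a was the 1 gene with exons opposite those of E230016M11Rik. The main transcript, Gadd45a-201, has 4 exons and 1223 bases. Its exon 3, 238 bases that are all coding, lies wholly within the shared stretch, so 19.5% of this transcript can be seen through the row. The shared stretch runs 79 bp past exon 3 into intron 3 and 20 bp past it into intron 2. Gadd45a-206, a shorter coding transcript, joins exon 2 to the last exon and has no base in the shared stretch, so it cannot be seen through the row. Exon 3 is printed because it is the part of the Gadd45a-201 messenger RNA that can add to the counts of the E230016M11Rik row (chr6:67036678-67036915, minus strand, mm10). It is written in lower case with no part in capitals, and 64.7% of its bases are G or C.
Gadd45a exon 3: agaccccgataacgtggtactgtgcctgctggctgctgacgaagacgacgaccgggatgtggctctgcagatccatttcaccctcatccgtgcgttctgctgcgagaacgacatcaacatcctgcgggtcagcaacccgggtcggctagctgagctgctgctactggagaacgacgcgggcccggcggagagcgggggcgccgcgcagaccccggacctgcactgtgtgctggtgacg

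**Figure D1:**
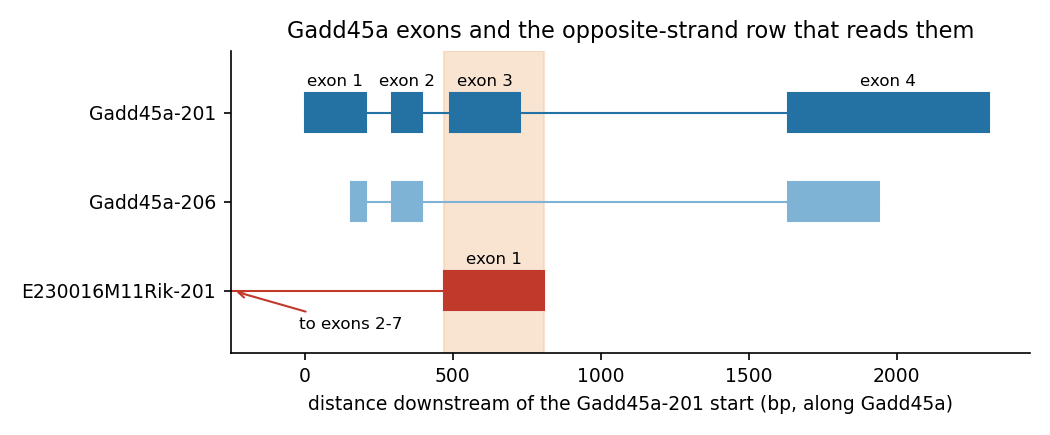
Exons (boxes) of 2 Gadd45a transcripts and of E230016M11Rik-201, placed by distance in bp downstream of the Gadd45a-201 start; the shaded band is the stretch shared with the row. Exon 3 lies 491 to 728 bp from the start and inside the band, which spans 471 to 807 bp, and Gadd45a-206 has no exon there.

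The reading of the row as Gadd45a rests on how the counts fall in the whole table. Libraries held 1132822 to 1342286 counts. Rows with an exon of a coding gene opposite to them were 10.3% of the table and took 87.4% to 88.6% of the counts of each library. Rows with no exon opposite were 82.9% of the table and took 3.98% to 4.36% in control, 3.99% to 4.52% under DON and 4.13% to 4.73% with glutamate added. At this locus the row named Gadd45a held 5, 5 and 10 counts in control, 13, 9 and 16 under DON, and 12, 13 and 7 with glutamate, while E230016M11Rik held 25.3 to 110 times as many in each library (highest ratio 109.7). Counts are given per row, not per exon, so RNA of Gadd45a and RNA made from E230016M11Rik itself cannot be told apart here. Of the defining smooth muscle genes, Tagln and Smtn could be read from opposite rows and passed the filter, Des was at 0 in every library, and Acta2, Myh11 and Cnn1 were not measured. The 3 smooth muscle genes read summed to 1227 to 1420 counts in control, 996 to 1146 under DON and 829 to 1352 with glutamate. Tagln fell under DON (log2 -0.52 ± 0.13, SE; edgeR adjusted p = 0.0132). With glutamate Tagln stood at log2 -0.0016 ± 0.12 against control and at 0.51 ± 0.13 against DON (edgeR adjusted p = 0.182). Smtn with glutamate stood at log2 -0.31 ± 0.10 against control (edgeR adjusted p = 0.0736). Few markers of other cell types could be read: 0 of 8 endothelial genes had a row that reads them, so these were not measured. The 2 of 8 leukocyte genes that were read summed to 0 to 4 counts a library, and the 1 of 6 epithelial genes read had 2 to 4. The leukocyte genes' own rows summed to 387 to 484 counts, nearly all in row Csf1r, whose exons lie opposite those of Hmgxb3. The 1 fibroblast gene read, Pdgfra, had 18 to 22 counts in control, 3 to 11 under DON and 4 to 12 with glutamate. It fell under DON by edgeR (adjusted p = 0.0147). DESeq2 did not call it, but may have given so low a row no adjusted p, as it did for Pck2. The part of either marker set in the Gadd45a values was not tested.

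Gadd45a was about 3 times as high under DON as in control cells. The row held 328, 319 and 253 counts in control replicates 1 to 3, and 1059, 987 and 987 under DON. As CPM, the count scaled to a common library total adjusted by the TMM method, that was 253, 250.5 and 198 in control, against 792, 763 and 748 under DON. The groups did not overlap, as held for 11.5% of all tested rows in this direction, and the lowest DON library was 2.96 times the highest control library. Group means were 234 ± 31.2 CPM in control and 768 ± 22.5 CPM under DON (SD, n = 3). The fitted difference was 3.29-fold, or log2 1.72 ± 0.09 (SE), the 13th largest rise among 4731 tested rows. In bulk RNA, more cells that make Gadd45a and more of its RNA in each cell cannot be told apart.

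The spread within groups was uneven. In control the CPM varied by 13.3% (coefficient of variation), where counting alone would give 5.77%, and replicate 3 was the low library. Under DON the spread was 2.93%, where counting alone would give 3.15%. With glutamate it was 6.89% against 3.28%, and again replicate 3, which also had the fewest counts in total (1132822), was lowest. Leaving out control replicate 3 gave log2 1.61 for DON against control, and leaving out control replicate 1 gave 1.78. Counting limits in this paragraph cover counting error only.

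With the supplement labelled glutamate, Gadd45a was near its level under DON. The row held 1020, 1005 and 762 counts in DON plus glutamate replicates 1 to 3, or 769, 748 and 673 CPM, with a mean of 729.9 ± 50.3 CPM (SD, n = 3). These libraries overlapped those of DON alone, where 5.39% of all rows lay higher and 6.07% lower without overlap. They lay above all control libraries, as did 9.87% of all rows. Against DON the difference was log2 -0.07 ± 0.08 (SE) and did not pass, with adjusted p = 0.921 by edgeR's quasi-likelihood test. The level with glutamate was 95.1% of that under DON, with a 95% interval of 84.3% to 107.4%. A fall to a level below 84.3% of that under DON lay outside the interval. The DON libraries in this test are those on which the gene was chosen. In that comparison 0.148% of all rows passed, 7 of 4731 (0.106% higher, 0.0423% lower). Against control the difference was 3.13-fold, or log2 1.64 ± 0.09, given as a description because it uses the same control libraries. In order of level the groups were control, DON plus glutamate and DON, and the upper 2 did not differ beyond their spread.

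**Figure D2:**
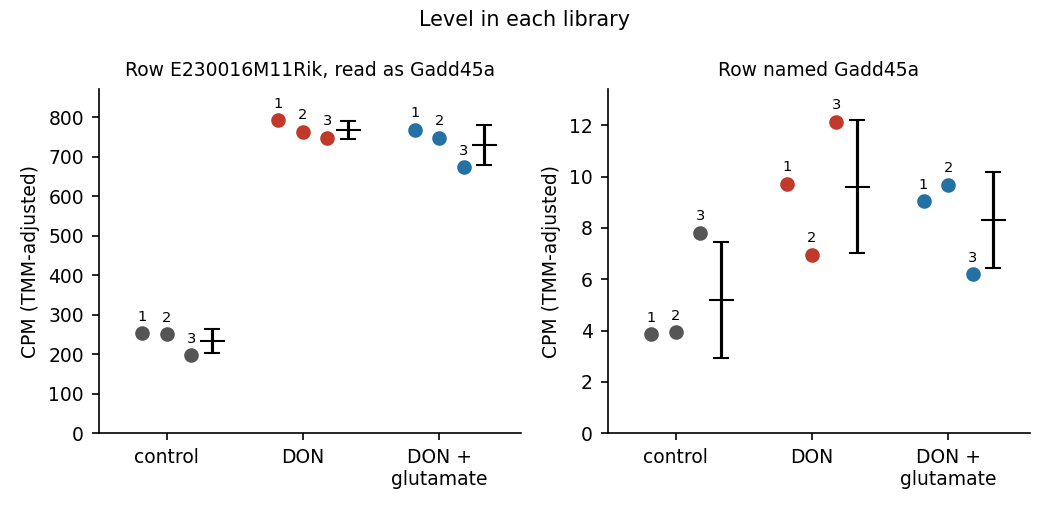
CPM of each library (dots, numbered by replicate) with the group mean and SD (black) for the row E230016M11Rik, read as Gadd45a, and for the row named Gadd45a. In the first panel the control libraries lie at 198 to 253 CPM and the other 6 at 673 to 792; in the second all libraries lie between 3.85 and 12.1 CPM and the groups overlap.

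The row named Gadd45a, which by the same reading holds little of the gene, was tested as a neighbour. It stood at 5.20 ± 2.27 CPM in control, 9.60 ± 2.59 under DON and 8.30 ± 1.86 with glutamate (SD, n = 3). Its difference between DON and control was log2 0.88 ± 0.42 (SE) and did not pass (edgeR adjusted p = 0.253). Its unadjusted p was 0.0476, its 95% interval ran from 0.01 to 1.74 on the log2 scale, and it rested on 5 to 16 counts a library. Of 16 annotated genes within 250 kb, all had a row and 4 rows passed the filter. Besides the Gadd45a and E230016M11Rik rows these were 4930597O21Rik, whose exons lie opposite 125 bp of Gng12, a G protein subunit gene, and Serbp1, which encodes an RNA-binding protein. Read as Gng12, row 4930597O21Rik held 272 to 399 counts and stood at log2 -0.32 ± 0.11 in DON against control (adjusted p = 0.0848). Serbp1, whose row lies opposite 1519 bp of the cytokine receptor gene Il12rb2, held 52 to 105 counts and stood at 0.18 ± 0.22 (adjusted p = 0.722). Neither passed in any of the 3 comparisons by edgeR, and nor did the row named Gadd45a. The other 12 rows held at most 3 counts in any library.

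Genes known to work with Gadd45a were read in the same way, each from the row opposite to it. The 8 lists held 207 distinct genes, of which 48 had a row that reads them and 41 passed the filter. In DON against control 7 of the 41 rose and 6 fell, where 6.32% of all 4731 rows passed, 2.64% higher (125) and 3.68% lower (174), or 180 and 126 when scaled by library totals. In DON plus glutamate against control 6 rose and 6 fell, where 3.23% of all rows passed, 1.42% higher (67) and 1.82% lower (86), or 104 and 50 with library totals. Every gene that rose in either comparison was on the amino acid stress list. The direction of that list under DON was already known when it was written. All 8 lists were chosen with earlier results of these data known. In DON plus glutamate against DON none of the 41 passed by edgeR, DESeq2 or limma voom, and 4 had an unadjusted p under 0.05 by edgeR. The median log2 difference of the 41 was 0.08, 0.03 and -0.01 in these 3 comparisons, and that of all rows 0.01, -0.00036 and 0.00011. The number of rows called in DON against control was 183 without control replicate 1, 176 without control replicate 2, 173 without DON replicate 2 and 182 without DON replicate 3. The number in DON plus glutamate against control was 99 without control replicate 2 and 88 without DON plus glutamate replicate 2.

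Of the genes named for growth arrest and DNA damage, 1 besides Gadd45a was measured of 6 listed: Ddit3, also called Gadd153, which encodes the stress transcription factor CHOP. Its row, Mars, held 91, 72 and 75 counts in control, 173, 194 and 177 under DON, and 164, 151 and 122 with glutamate. Both treated groups lay above all control libraries, as did 11.5% of all rows under DON and 9.87% with glutamate. The libraries with glutamate lay below all DON libraries, as did 6.07% of all rows. Ddit3 rose 2.23-fold under DON (log2 1.16 ± 0.13, SE; edgeR adjusted p = 6.44e-07), and stood at log2 -0.26 ± 0.12 with glutamate against DON (adjusted p = 0.707). Only 68 bp of Ddit3 lie opposite that row. Gadd45b and Gadd45g, the relatives, and Ppp1r15a, also called Gadd34, were not measured.

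Among 18 genes whose products bind GADD45A or work beside it 3 were measured and none passed, with 0 by DESeq2, 0 by limma voom and 0 at an unadjusted p under 0.05. Of all rows 6.32% passed by edgeR in DON against control. Apex1, an endonuclease of base excision repair, held 1525 to 1895 counts and stood at log2 0.10 ± 0.07 in DON against control. Gadd45gip1, a mitochondrial ribosome protein that binds GADD45 proteins, stood at 0.08 ± 0.08. Tdg, the glycosylase that removes oxidised methylcytosine, had 9 to 15 counts and stood at -0.27 ± 0.37. Pcna, Cdkn1a (p21), Cdk1, Ccnb1 and Map3k4 were not measured. The DNA repair and demethylation list, which shares Apex1 and Tdg, had 0 of 8 measured genes called (30 listed), with 0 by DESeq2 and voom and 1 at an unadjusted p under 0.05. That gene was Ddb2, a damage sensor of nucleotide excision repair, at 0.21 ± 0.09 (adjusted p = 0.189).

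Few genes that act on Gadd45a or are raised beside it by p53 were measured, and none was called higher. In DON against control 2.64% of all rows were called higher, so with so few genes 0 lies near that share. Of 24 regulators listed 5 were measured, and 0 passed in DON against control by edgeR, DESeq2 or voom, with 0 at an unadjusted p under 0.05. Foxo1, a forkhead factor of nutrient stress, stood at log2 0.22 ± 0.19, Jun at 0.12 ± 0.11 and Jund at 0.07 ± 0.09, both parts of the AP-1 factor. Jun and Jund were also the 2 measured genes of the 30 on the p38 and JNK list. Pou2f1, the gene of the octamer-binding factor OCT-1, stood at -0.04 ± 0.09, and Atr, a DNA damage kinase, at 0.16 ± 0.38 on 9 to 18 counts. Trp53 and Atf4 were not measured.

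Of 40 p53 targets listed 8 were measured. None was higher by edgeR in DON against control, where 2.64% of all rows were, and 1 was lower, where 3.68% were. In all 1 passed by DESeq2 and 1 by voom, and 4 had an unadjusted p under 0.05 by edgeR. The nearest to a call of a rise were Plk3, a stress kinase, at log2 0.88 ± 0.37 (edgeR adjusted p = 0.181), and Rrm2b, a nucleotide-supplying enzyme, at 0.34 ± 0.14 (adjusted p = 0.177). Plk3 rested on 4 to 25 counts. Ccnd1, cyclin D1, which drives entry into S phase, fell (log2 -0.47 ± 0.07; adjusted p = 9.74e-05). Its row held 2272, 2234 and 2316 counts in control and 1633, 1621 and 1804 under DON. These groups did not overlap, as held for 12.9% of all rows in this direction. With glutamate it held 1956, 1816 and 1656 counts and was lower than control at log2 -0.31 ± 0.07 (adjusted p = 0.0115). Leaving out DON plus glutamate replicate 2 took that second adjusted p to 0.106 and leaving out control replicate 3 took it to 0.0516; over all alternatives it ran from 0.000935 to 0.106. Cdkn1a, Mdm2 and Ccng1, the usual p53 reporters, were not measured.

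Genes of G2 and mitosis, the stage that GADD45A can delay, were lower in part. Of 36 listed 11 were measured, and none rose in either comparison with control. In DON against control 5 fell, where 3.68% of all rows did. In DON plus glutamate against control 5 fell, where 1.82% of all rows did. DESeq2 called 5 and 5, and voom 6 and 5. Like the other lists, this one was chosen with earlier results of these data known, so these counts are a description. The median of the 11 was log2 -0.24 under DON and -0.34 with glutamate, against 0.01 and -0.00036 over all rows. Of the 11, 1 stood above its control level under DON and 2 with glutamate, none of them called. Plk1, the kinase that drives mitotic entry, held 1402, 1342 and 1416 counts in control, 1037, 1062 and 1139 under DON, and 1106, 937 and 857 with glutamate. It fell by 0.40 ± 0.08 under DON (log2, SE; edgeR adjusted p = 0.00185) and by 0.50 ± 0.08 with glutamate (adjusted p = 0.000153). Neither group overlapped control, as held in this direction for 12.9% of all rows under DON and 11.1% with glutamate. Cdc25b, the phosphatase that activates CDK1, held 588, 586 and 543 counts in control, 491, 409 and 431 under DON and 494, 442 and 400 with glutamate. It fell by 0.40 ± 0.09 under DON (adjusted p = 0.00439). Prc1, a spindle midzone protein, fell by 0.31 ± 0.07 under DON (adjusted p = 0.00682) and by 0.39 ± 0.07 with glutamate (adjusted p = 0.00127). Kif4, a mitotic kinesin, fell by 0.40 ± 0.10 under DON (adjusted p = 0.0176), and Nek2, a centrosome kinase, by 0.68 ± 0.20 (adjusted p = 0.0453). Nek2 turned on 1 library: it held 356, 364 and 360 counts in control, but 305, 95 and 293 under DON. With glutamate Ccna2, cyclin A2 (log2 -0.30 ± 0.08), Kif20a, a kinesin of cytokinesis (-0.30 ± 0.07), and Cdc25b (-0.34 ± 0.09) completed the 5 that fell.

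Several of these calls depended on single libraries. In DON against control, the edgeR adjusted p of Kif4 was 0.0713 and 0.0563 when control replicates 1 and 3 were left out in turn, and 0.0668 and 0.0577 for DON replicates 2 and 3 (range 0.00562 to 0.0713 over all alternatives). Prc1 did not pass without DON replicate 3 (0.0531; range 0.00102 to 0.0531). Nek2 did not pass without control replicate 1 (0.108), control replicate 2 (0.137), control replicate 3 (0.0838), DON replicate 2 (0.0823, at log2 -0.32) or DON plus glutamate replicate 3 (0.0590), nor by DESeq2 (0.330), with library totals (0.0724), with the replicate block (0.0709) or with only the 2 groups compared (0.0528; range 1.06e-07 to 0.330). In DON plus glutamate against control, Ccna2 did not pass without control replicate 1 (0.0670), control replicate 2 (0.0711), control replicate 3 (0.108), DON plus glutamate replicate 2 (0.161) or replicate 3 (0.0599), with library totals (0.0679) or with the replicate block (0.0675; range 0.00704 to 0.161). Cdc25b did not pass without control replicate 1 (0.101), control replicate 2 (0.113), DON plus glutamate replicate 2 (0.165) or replicate 3 (0.0637), with library totals (0.0679) or with no filter on low counts (0.0568; range 0.0134 to 0.165). Kif20a did not pass without control replicate 2 (0.0711), control replicate 3 (0.129), DON plus glutamate replicate 2 (0.107) or replicate 3 (0.0984), with library totals (0.0551), with no filter (0.0551) or with the replicate block (0.0553; range 0.00489 to 0.129).

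The amino acid stress list, which holds genes raised when amino acids run short, was the list with the most calls in Gadd45a's direction. Of 50 listed 9 were measured. In DON against control 7 rose, where 2.64% of all rows did, and in DON plus glutamate against control 6 rose, where 1.42% did. DESeq2 called 6 and 5 of them, where it gave Pck2 no adjusted p, and voom called 7 and 6. The median of the 9 was log2 1.23 and 1.26. Their direction under DON was already known when this list was written. Beside Ddit3 these were Aldh1l2, a mitochondrial folate enzyme (log2 2.13 ± 0.08, SE), Slc6a9, a glycine transporter (1.78 ± 0.07), Atf5, a stress transcription factor (1.71 ± 0.11), Pck2, a mitochondrial enzyme that makes phosphoenolpyruvate (1.44 ± 0.27), and Mars, a tRNA synthetase (1.23 ± 0.09). Mars was read from the row named Ddit3, and Ddit3 from the row named Mars, through the same 68 bp. The rises of Mars and Ddit3 may therefore not be separate readings. Gadd45a, at 1.72, lay between Atf5 and Slc6a9. Psph (log2 -0.08 ± 0.18 in DON against control) and Aars (0.74 ± 0.42, on 5 to 17 counts) passed in neither comparison with control. Pck2 was read through 53 bp and held 13, 14 and 8 counts in control, 33, 34 and 31 under DON, and 32, 36 and 39 with glutamate. Its treated groups did not overlap control, as held in this direction for 11.5% of all rows under DON and 9.87% with glutamate. Cebpb, a transcription factor of stress and inflammation, rose in DON against control by 0.33 ± 0.09 (edgeR adjusted p = 0.0309), and with glutamate stood at 0.05 against control (adjusted p = 0.843). Its difference between the DON groups was -0.28 and did not pass (adjusted p = 0.540). The adjusted p of Cebpb rose to 0.0760, 0.113 and 0.0993 when control replicates 1, 2 and 3 were left out in turn, and to 0.0855 and 0.103 for DON replicates 2 and 3. It was 0.0866 with no filter and 0.0501 with the replicate block (range 0.00688 to 0.113). Where at least 200 bp of overlap was asked for, Ddit3, Mars, Atf5 and Pck2 were no longer read, nor were Plk1 and Cdc25b.

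**Figure D3:**
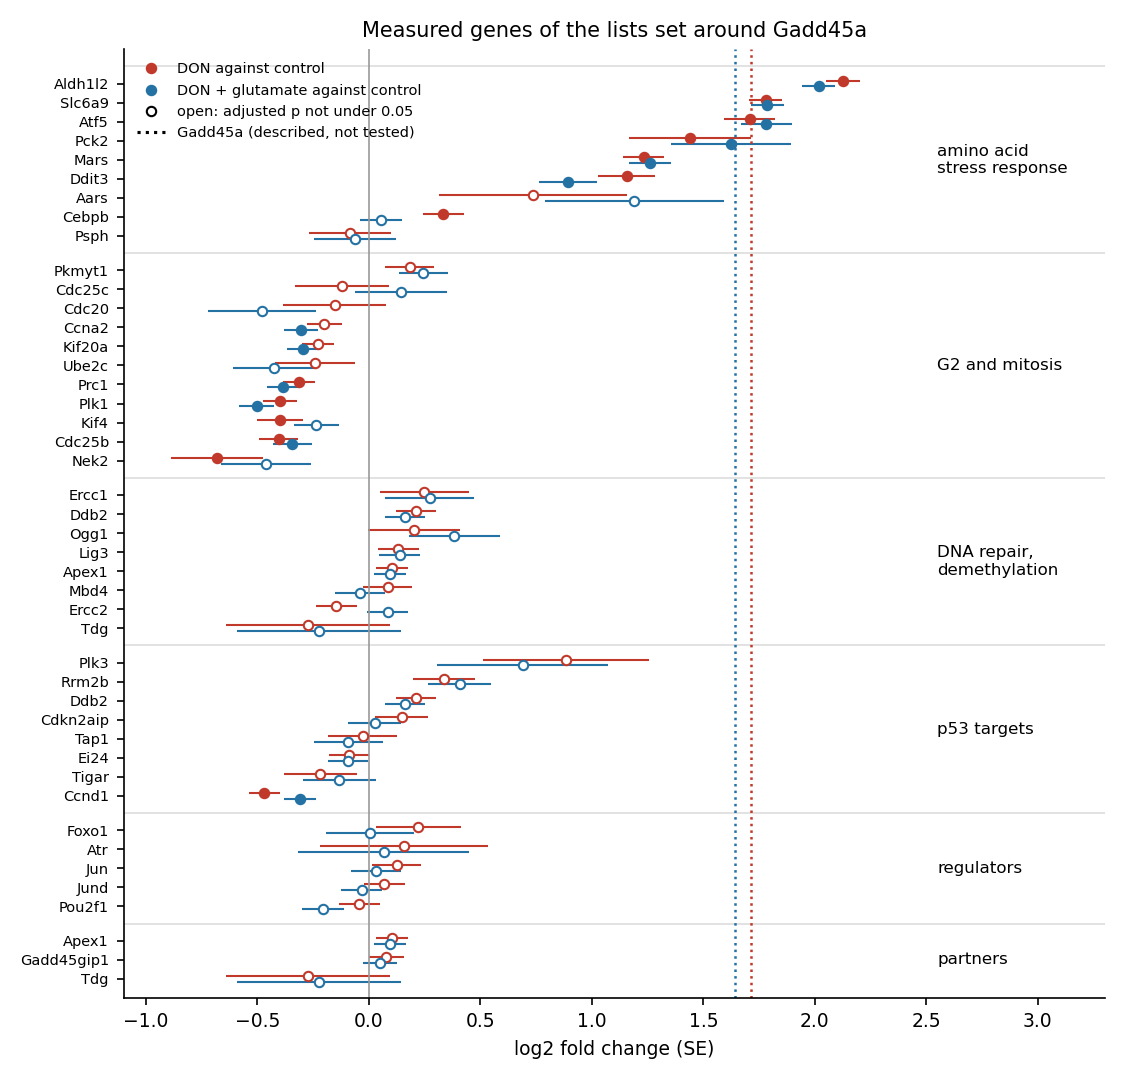
Log2 fold change with SE of the measured genes of 6 lists, for DON against control and for DON plus glutamate against control; filled points had edgeR adjusted p under 0.05, and dotted lines mark Gadd45a at 1.72 and 1.64. The remaining 2 lists hold only Ddit3, Jun and Jund, which are shown under other lists. Aldh1l2 and Slc6a9 lie past the dotted line of both comparisons, Atf5 past that of DON plus glutamate only, and the other genes shown past neither. The amino acid stress list was written with its direction under DON known.

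The genes whose pattern over the 9 libraries was most like that of Gadd45a included a transporter, a sugar transferase and regulators of the cytoskeleton. Likeness was Pearson's r of log2 CPM with the E230016M11Rik row, over 2375 genes read from opposite rows. It is a description that uses the values by which the row was chosen, and any gene that steps up with DON has a high r: 41 genes had r above 0.9 and 39 below -0.9. The highest r belonged to Slc6a9 (0.992), followed by Ifrd1, a stress-related transcriptional coregulator (0.990), Trim46, a microtubule-organising protein (0.987), B3galnt2, a sugar transferase (0.986), and Arhgef2, an activator of RhoA (0.986). Arhgef2, read from row Gm20652, held 200, 168 and 164 counts in control, 732, 628 and 620 under DON, and 561, 708 and 575 with glutamate. Its size of change under DON, 3.63-fold, was near that of Gadd45a. Slc6a9 stood at 3.44-fold, Trim46 at 4.40-fold, Ifrd1 at 1.65-fold and B3galnt2 at 1.39-fold, so a like pattern did not mean a like size. Among the lowest r were those of Hmgcs1, an enzyme of cholesterol synthesis (-0.988), and Capn2, a calcium-activated protease (-0.980). Hmgcs1 held 3017, 2913 and 3028 counts in control, 1288, 1428 and 1372 under DON, and 1490, 1369 and 1214 with glutamate. None of these 7 passed between the DON groups by edgeR, with log2 differences from -0.14 (Trim46) to 0.06 (Capn2).

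**Figure D4:**
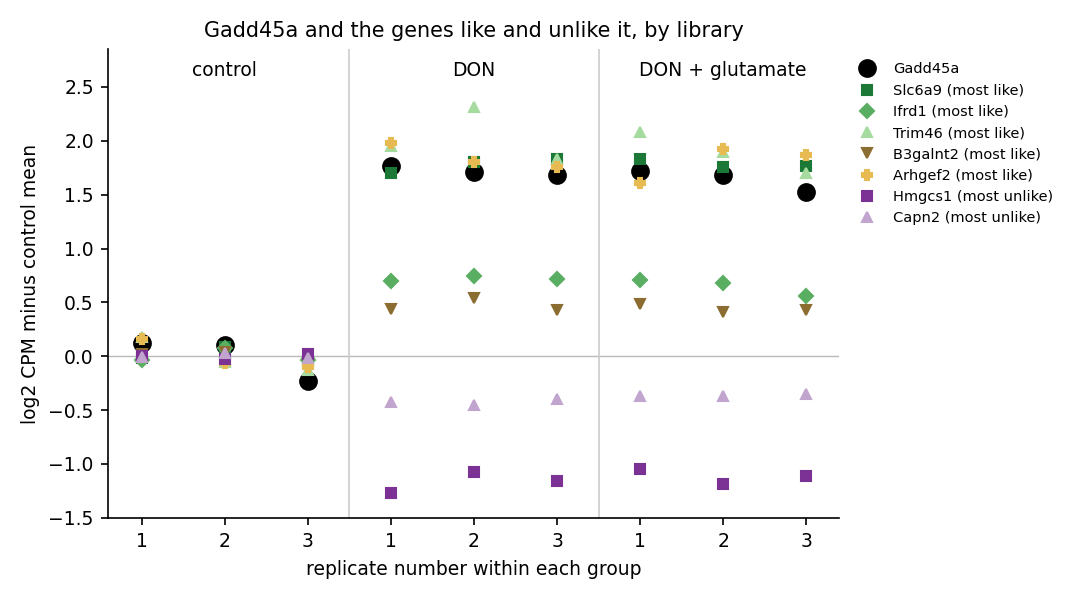
Log2 CPM of Gadd45a (black circles) and of the 5 genes most like it and 2 among the most unlike, in each library, after subtracting that gene's control mean. Gadd45a, Slc6a9, Trim46 and Arhgef2 lie highest in the 6 libraries with DON, Ifrd1 and B3galnt2 lie lower, and Hmgcs1 and Capn2 lie below their control level.

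The promoter of Gadd45a is shown because the genes that stepped up with it can be compared at that site. The 250 bases before its RefSeq start are given (GRCm38.p6, chr6:67037408-67037657, minus strand). Capitals mark 2 motifs searched on both strands, the octamer ATTTGCAT and CCAAT, which the factors OCT-1 and NF-Y are known to bind in this promoter in other work.
Gadd45a upstream: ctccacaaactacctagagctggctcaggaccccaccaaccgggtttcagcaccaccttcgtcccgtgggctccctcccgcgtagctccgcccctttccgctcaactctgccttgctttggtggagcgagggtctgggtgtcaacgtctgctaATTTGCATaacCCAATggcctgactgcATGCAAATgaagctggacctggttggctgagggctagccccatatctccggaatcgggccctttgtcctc
The octamer occurs 97 to 90 bases before the start and again, as ATGCAAAT, 70 to 63 bases before it, with CCAAT between them at 86 to 82, and none of these matches overlap. Of 32851 RefSeq promoters cut to the same 250 bases, 1.60% held the octamer, 0.0974% held it more than once and 33.8% held CCAAT. The motif TGATGNAA, part of the site that ATF4 binds with C/EBP factors, was not in this window and was in 3.45% of all promoters. Of the 5 genes most like Gadd45a, 4 had promoters in the table: the octamer was in 1 of 4 promoters of Arhgef2 and in none of Slc6a9, Ifrd1 or Trim46. CCAAT was in the promoter of Ifrd1, in 1 of 3 of Trim46, in 1 of 4 of Arhgef2 and in none of the 3 of Slc6a9. TGATGNAA was in 1 of 3 promoters of Trim46 and in none of Slc6a9, Ifrd1 or Arhgef2. Of the relatives, Gadd45g held each of the 3 motifs 1 time, and Gadd45b held CCAAT 2 times and neither of the others. A match describes letters, and binding was not measured.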

How the data were processed

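RNA of 9 MOVAS libraries was analysed from the deposited table of whole-number read counts per gene row. Per the submitters' processing notes, reads were handled with STAR and HTSeq on mm10. Their versions, annotation release and strand setting are not given in the sources used here. No label ties replicates to different cultures, so a p-value reflects library-to-library spread alone, possibly technical. Row IDs were matched to GENCODE M21 (53274 of 53379 rows). A row was read as a gene where its exons lie across those of a single coding gene of the other strand, with 50 bp or more shared, taking the row of highest mean count per gene.

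All rows entered 1 edgeR 4.0.16 fit in R 4.3.3 (filterByExpr, TMM, glmQLFit and glmQLFTest, 3 groups, two-sided, Benjamini-Hochberg over the 4731 rows that passed; called under 0.05). SE and 95% intervals follow from the test statistic. Scripts were tested on simulated data.

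The gene and the lists were chosen with earlier results of these data known, and the promoter motifs after the values were seen. Psph and Aars were also named after their values were seen. Named were the row, its neighbours within 250 kb, the 5 rows most and 3 least correlated with it (log2 CPM, prior count 2; predicted models left out), and list members called in a comparison or, with none called, the 2 of smallest p; 1 of the least correlated is not reported here, and further members of the partner, regulator and p53 lists were named after their values were seen. Alternatives tried were library totals, DESeq2 1.42.0 size factors, no filter, the DESeq2 test, voom in limma 3.58.1, the replicate block, only the 2 groups compared, 1 row per opposite gene, 200 bp of overlap, and each library left out. A gene that DESeq2 gave no adjusted p was counted as not called by it. Replicate libraries differed by more than sampling noise.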

Additional observations from a re-analysis of the deposited data

How the results depend on the processing

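The Gadd45a values kept their direction in all 17 alternatives run for each comparison. DON against control ranged from log2 1.61 to 1.78, DON plus glutamate against control from 1.54 to 1.70, and DON plus glutamate against DON from -0.11 to -0.01, where adjusted p ran from 0.862 to 0.997 and never passed. With the replicate block these were 1.72, 1.65 and -0.08 (adjusted p = 0.932 for the last). Same-numbered libraries did not deviate together (r of their deviations -0.19 to 0.15). Deviations from a mean of 3 libraries cannot settle whether same-numbered ones were paired. The fit reported takes the numbers as names only. Leaving out 1 library gave 173 to 318 rows called in DON against control, 88 to 178 in DON plus glutamate against control and 1 to 11 in DON plus glutamate against DON. Of the last, leaving out DON replicate 3 gave 1, DON plus glutamate replicate 2 gave 1, and DON plus glutamate replicate 3 gave 11. There 7 rows were called in the fit reported, 1 with 1 row per opposite gene, 2 by DESeq2, 3 by voom, 15 with no filter and 3 with only the 2 groups compared. With 200 bp of overlap, 30 list genes were measured, and 7 in place of 13 were called in DON against control and 6 in place of 12 in DON plus glutamate against control, since fewer genes are read. The row covers 1 exon, and a change in use of that exon cannot be told apart from a change of the gene.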
